A study of Mus musculus with 4 samples.

Results

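The 42 genes described here encode collagens, fibronectin and elastic fibre proteins, matricellular proteins, proteoglycans and lysyl oxidases. They were taken by symbol from a list by function that was drawn up with earlier results of these data known, so their counts are no independent support, and all 42 were present among the 19465 genes listed in the count matrices. They fall into 8 roles: 7 fibrillar collagens, 6 network and multiplexin collagens, 4 beaded filament collagens, 3 fibril-associated collagens, 3 genes of fibronectin and the elastic fibre, 9 matricellular proteins, 6 proteoglycans and 4 lysyl oxidases. The data were Visium spatial transcriptomes of 4 heart sections, each cut at 5 µm from formalin-fixed, paraffin-embedded tissue, in which UMIs (unique molecular identifiers, counted molecules) are assigned to spots of a capture grid. All mice were wild type FVB/NJ, immunized with a peptide of MyHCα, the alpha cardiac myosin heavy chain, and all had received antibodies against PD-1 and CTLA-4, a pair of immune checkpoint inhibitors (ICIs). For 2 sections the labels name no further treatment (ICI-alone sections 1 and 2), and they record myocarditis in that group. In the other 2 an antibody neutralizing IL-17A was added (antibody sections 1 and 2). Section numbers are the batch numbers of the labels. Mouse age and antibody doses are not given in the sources used here, no section without ICIs was analysed here, and whether each section is from its own mouse is not stated. The p-values therefore refer only to the spread among these 4 sections. A spot covers several cells or parts of cells, and fewer cells of a type and less RNA per cell cannot be told apart.

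The cardiac interstitium is held together by fibrils of type I and type III collagen, whose chains are folded in the endoplasmic reticulum, secreted by fibroblasts, trimmed outside the cell and joined covalently by lysyl oxidases. Injury is known to turn fibroblasts into myofibroblasts, which lay down a provisional matrix of fibronectin and tenascin-C and then collagen. Matricellular proteins are secreted into this matrix mainly as signals, while small leucine-rich proteoglycans bind collagen fibrils and govern their assembly and spacing.

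The RefSeq table of promoter windows (GRCm38.p6) held windows for 27 of the 42 genes, 31 windows in all. The 120 bases before the annotated start are shown for 4 genes on the plus strand. Col1a2 and Col3a1 are shown because they stand for the fibrillar collagens that were lower with the antibody, and Cilp and Ogn because they went the other way. Capitals mark a match to any of 4 motifs searched on both strands, which were the TATA box (TATAAA), the CCAAT box as spelled, the AP-1 site (TGANTCA) and the GC box (GGGCGG). None of these motifs contains another. The windows lie at chr6:4505498-4505617, chr1:45311418-45311537, chr9:65265060-65265179 and chr13:49607895-49608014 in the order printed.
Col1a2: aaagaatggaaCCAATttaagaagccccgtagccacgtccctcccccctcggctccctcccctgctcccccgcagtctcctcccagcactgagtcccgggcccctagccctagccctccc
Col3a1: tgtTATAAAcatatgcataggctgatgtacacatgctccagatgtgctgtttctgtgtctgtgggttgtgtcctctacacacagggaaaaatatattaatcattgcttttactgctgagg
Cilp: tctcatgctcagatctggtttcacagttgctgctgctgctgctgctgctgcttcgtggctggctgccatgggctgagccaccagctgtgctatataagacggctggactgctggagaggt
Ogn: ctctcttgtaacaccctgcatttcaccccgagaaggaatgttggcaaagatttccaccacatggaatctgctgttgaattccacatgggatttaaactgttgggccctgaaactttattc
The CCAAT match of Col1a2 lay 109 to 105 bases before the start and the TATAAA match of Col3a1 117 to 112 bases before it. These exact letters were not found in the printed stretches of Cilp and Ogn. The Cilp stretch does hold tatataag near its end, which the exact pattern TATAAA does not match. Other spellings of the motifs were not searched. Over the 250 bases before the start, TATAAA was present in 6 of the 31 windows against 12.4% of all 32851 windows in the table, CCAAT in 9 against 33.8%, TGANTCA in 1 against 6.75%, and GGGCGG in 18 against 32.7%. These matches are letters only, and no binding was measured.

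Tissue covered 2503 and 3052 spots of the ICI-alone sections, with totals of 73167202 and 66255242 UMIs. In the antibody sections it covered 2604 and 2585 spots, with totals of 47882576 and 33005923 UMIs, so the antibody sections were the shallower ones. The heart markers Myh6, Tnnt2, Ttn and Ryr2 were detected in every section, from 754 CPM (UMIs of a gene scaled to a common section total) upwards, and Actc1 is not listed among the features. Antibody section 2 alone held spots rich in atrial transcripts (163 spots). The share of all UMIs on the 42 genes was 1.497% and 3.29% without the antibody, and 0.536% and 0.593% where it was added. The groups did not overlap in this share, and ICI-alone section 2 was the highest.

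Over whole sections most of the matrix genes were lower with the antibody. Of the 42 genes, 28 were lower and 1 was higher at an adjusted p under 0.05 (edgeR quasi-likelihood test, Benjamini-Hochberg over 18817 genes). Of all genes tested 8.81% were lower and 3.03% higher, 11.8% in all. The median log2 difference, antibody minus ICI alone, was -1.45 over the 42 genes and 0.09 over all genes. Both antibody sections lay below both ICI-alone sections for 35 of the 42, against 32.2% of all genes tested, and above them for 4, against 36% of all genes. ICI-alone section 2 exceeded ICI-alone section 1 for 39 of the 42, and of the 35 genes lower with the antibody in both batches, 32 fell further in batch 2. Levels below are CPM after TMM scaling, given as ICI-alone sections 1 and 2 and then antibody sections 1 and 2. They are not compared between genes, since the files give no probe lengths or efficiencies. With a filter at 10 CPM, which tests 37 of the genes, 19 were called, against 821 of all 9504 genes tested. Without antibody section 1 or 2 fewer of the 42 were called, and fewer of all genes. Those fits hold a lone antibody section.

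**Figure D1:**
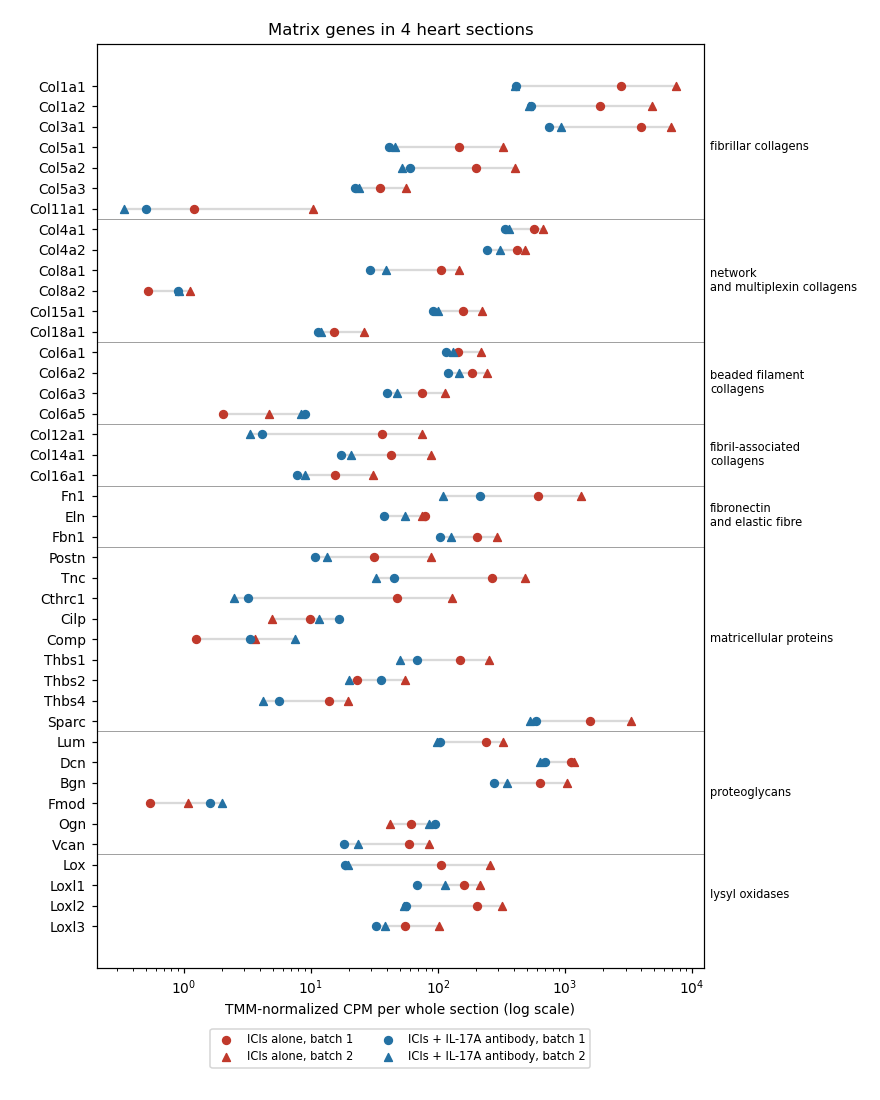
Level of each of the 42 matrix genes in each of the 4 heart sections, as TMM-scaled CPM on a log axis, with genes grouped by role. Red is ICIs alone, blue is ICIs with the IL-17A antibody, circles are batch 1 and triangles batch 2. Both blue marks lie below both red marks for 35 genes and above them for 4 (Col6a5, Cilp, Fmod and Ogn).

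All 7 fibrillar collagen genes fell, with a median log2 difference of -2.66. Col1a1 (chr11:94936224-94953042), which encodes the major chain of type I collagen, measured 2758 and 7542 CPM with ICIs alone and 413 and 403 CPM with the antibody. Its group means differed 12.6-fold (log2 -3.66, SE 0.55, edgeR adjusted p = 0.022). The antibody sections were close to each other, and the ICI-alone sections differed from each other more than the antibody sections did. Col11a1, a minor fibrillar chain that helps set fibril diameter, had the largest log2 difference of the group at -3.76 (SE 0.97, edgeR adjusted p = 0.0497), from 1.21 and 10.5 CPM to 0.50 and 0.34 CPM. It rested on few molecules, 81 and 711 UMIs against 24 and 12, and most of its ICI-alone counts came from section 2. Col5a3, a chain of type V collagen, which nucleates fibrils, had the smallest difference, with 35.3 and 56.1 CPM against 22.1 and 23.8 CPM (log2 -0.99, SE 0.22, edgeR adjusted p = 0.0369). Col1a2, Col3a1, Col5a1 and Col5a2 fell by 2.66, 2.69, 2.44 and 2.44 on the log2 scale. The calls of Col1a1, Col1a2 and Col3a1 were lost when either antibody section was left out, with adjusted p between 0.0802 and 0.135.

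Among the network and multiplexin collagens, which form sheets in basement membranes or lie beside them, 2 of 6 fell and the median log2 difference was -0.83. Col8a1, a short-chain collagen of vessel walls, measured 107 and 148 CPM with ICIs alone and 29.0 and 39.1 CPM with the antibody (log2 -1.90, SE 0.22, edgeR adjusted p = 0.0198). Col15a1, a collagen of the basement membrane zone, fell by 0.98. Col8a2, the partner chain of Col8a1 in the type VIII family, overlapped between groups at 0.52 and 1.12 CPM against 0.90 and 0.91 CPM (log2 0.14, edgeR adjusted p = 0.815). Col4a1 and Col4a2 encode the main chains of the basement membrane network and lie head to head at chr8:11198423-11312889 and chr8:11312805-11449287. They had log2 differences of -0.83 and -0.70 without passing the test (adjusted p = 0.0536 and 0.077), and passed it with the batch as a block (0.0372 and 0.0434). Col18a1, the endostatin precursor, behaved alike (log2 -0.82, adjusted p = 0.0727, and 0.0426 with the block). The block called 3839 of all 18817 genes tested, against 2229 without it.

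The beaded filament chains of type VI collagen form a fine network around cells. Of the 4, Col6a3 fell (log2 -1.11, SE 0.22, edgeR adjusted p = 0.0286), from 75.6 and 114 CPM to 40.0 and 47.8 CPM. Col6a1 had the smallest difference, with 145 and 218 CPM against 117 and 133 CPM (log2 -0.54, adjusted p = 0.139). Col6a2 had a log2 difference of -0.68 (adjusted p = 0.0726, and 0.0319 with the batch as a block). Col6a5, an alternative chain of the same family, had higher levels in both antibody sections and is taken up again below. All 3 fibril-associated collagens, which coat the surface of fibrils, fell. Col12a1 measured 36.2 and 75.4 CPM with ICIs alone and 4.09 and 3.32 CPM with the antibody, a difference of 15.0-fold (log2 -3.90, SE 0.36, edgeR adjusted p = 0.0175). Both antibody sections lay far below both ICI-alone sections, and the ICI-alone sections differed from each other more than the antibody sections did. Col16a1 had the smallest difference of the 3, with 15.6 and 30.8 CPM against 7.73 and 9.04 CPM (log2 -1.47, SE 0.31, edgeR adjusted p = 0.033), and Col14a1 fell by 1.79.

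Fn1, the gene of fibronectin, on which cells assemble new matrix, fell from 614 and 1350 CPM to 215 and 109 CPM (log2 -2.60, SE 0.48, edgeR adjusted p = 0.0254). Its adjusted p was 0.0734 without antibody section 2. Fbn1, the main protein of the microfibrils that carry elastin, fell by 1.11. Eln, the gene of elastin itself, measured 78.8 and 75.5 CPM against 37.8 and 55.0 CPM. That difference stood just outside the threshold (log2 -0.73, SE 0.19, edgeR adjusted p = 0.0511) and inside it with the batch as a block (0.0334).

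Of the 9 matricellular genes 6 fell, with a median log2 difference of -1.77 over the 9. Cthrc1 (chr15:39076932-39087121) encodes a secreted protein known from activated fibroblasts. It had the largest log2 difference of the 42 genes, falling from 47.6 and 128 CPM without the antibody to 3.19 and 2.501 CPM with it. Its means differed 30.9-fold (log2 -4.94, SE 0.49, edgeR adjusted p = 0.0175). Tnc, the tenascin-C of injured tissue, fell from 265 and 485 CPM to 45.5 and 32.6 CPM (log2 -3.26, SE 0.34, edgeR adjusted p = 0.0175). Neither gene came near an overlap between the groups. Postn (periostin, a marker of activated cardiac fibroblasts), Sparc (a collagen-binding glycoprotein) and Thbs1 (an activator of latent TGF-beta) fell by 2.31, 2.12 and 1.76. Thbs4, a thrombospondin of stressed muscle and tendon, fell from 13.8 and 19.7 CPM to 5.62 and 4.18 CPM (log2 -1.77, SE 0.24, edgeR adjusted p = 0.0217). Thbs2, another thrombospondin, had the smallest difference and overlapped, with 22.9 and 54.7 CPM against 35.4 and 19.9 CPM (log2 -0.49, SE 0.41, edgeR adjusted p = 0.408). In batch 1 it was higher with the antibody, and without ICI-alone section 2 its sign turned (log2 0.28).

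Of the 6 proteoglycan genes 3 fell and 1 rose. Vcan, the large hyaluronan-binding versican, fell furthest, from 58.9 and 85.5 CPM to 18.1 and 23.6 CPM (log2 -1.79, SE 0.22, edgeR adjusted p = 0.021). Lum (lumican) and Bgn (biglycan) fell by 1.48 and 1.43. Dcn (decorin) measured 1111 and 1180 CPM against 691 and 642 CPM, a difference that did not pass (log2 -0.78, adjusted p = 0.0773). All 4 lysyl oxidase genes, which crosslink collagen and elastin, fell. Lox measured 107 and 257 CPM with ICIs alone and 18.5 and 19.6 CPM with the antibody (log2 -3.25, SE 0.39, edgeR adjusted p = 0.021). Loxl1, which is needed for elastic fibres, had the smallest difference, from 160 and 214 CPM to 68.4 and 113 CPM (log2 -1.05, SE 0.27, edgeR adjusted p = 0.0499). Loxl2 and Loxl3 fell by 2.25 and 1.16. Across the settings and left-out sections tried, 10 of the 29 calls were kept in every case, those of Col5a1, Col5a2, Col8a1, Col12a1, Tnc, Cthrc1, Thbs4, Vcan, Lox and Loxl2, and all 29 genes kept their direction.

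A total of 6 genes had positive whole-section differences. Ogn (osteoglycin, chr13:49608015-49624501), a small leucine-rich proteoglycan, was the 1 that passed the test. It measured 61.6 and 41.8 CPM with ICIs alone and 94.2 and 84.6 CPM with the antibody (log2 0.79, SE 0.20, edgeR adjusted p = 0.0486). The groups were separate, but the adjusted p was 0.0707 without ICI-alone section 2 and 0.148 and 0.0957 without antibody sections 1 and 2. Cilp (chr9:65265180-65280614), a cartilage intermediate layer protein also made by cardiac fibroblasts, measured 9.89 and 4.97 CPM against 16.7 and 11.54 CPM (log2 0.93, adjusted p = 0.102). Col6a5 measured 2.05 and 4.71 CPM against 9.06 and 8.38 CPM (log2 1.37, adjusted p = 0.0524). Both genes were separate between groups at low levels. Fmod (fibromodulin, a fibril-binding proteoglycan) measured 0.54 and 1.09 CPM against 1.61 and 1.99 CPM (log2 1.14, adjusted p = 0.0832), from 36 and 74 UMIs and 77 and 70 UMIs. Comp, the cartilage oligomeric matrix protein, overlapped with 1.26 and 3.66 CPM against 3.34 and 7.56 CPM (log2 1.14, adjusted p = 0.175). With the batch as a block these 4 genes passed at edgeR adjusted p of 0.0217 (Cilp), 0.0328 (Col6a5), 0.0361 (Fmod) and 0.0196 (Comp). Under that fit 5 of the 42 were higher and 33 lower. Of all 18817 genes tested, it called 1520 higher and 2319 lower, against 571 and 1658 without the block. The sixth gene was Col8a2.

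Genes that act before and beside these proteins were read from companion lists. Of 24 genes for collagen folding and processing 18 fell and none rose, with a median log2 difference of -1.06. Those with the smallest p were Fkbp10, a prolyl isomerase of the endoplasmic reticulum (log2 -1.90), Plod2, a lysyl hydroxylase (log2 -1.19), and Colgalt1, a collagen galactosyltransferase (log2 -1.04). Among 17 other elastic fibre and crosslinking genes 10 fell and 1 rose (median -1.30), led by Efemp2, Emilin2 and Fbln2 at log2 -1.69, -1.30 and -1.70. Of 22 other matricellular genes and small proteoglycans 6 fell and 1 rose (median -0.38), led by Prg4 (log2 -3.34), Tgfbi (log2 -1.40) and Ccn4 (log2 -2.19). Of 21 TGF-beta ligands, receptors and targets 8 fell and 1 rose (median -0.46), and the ligand Tgfb2 fell by 2.07. Of 13 collagen receptors 4 fell, among them the integrin Itga11 (log2 -1.77), the collagen uptake receptor Mrc2 (log2 -1.48) and the leukocyte receptor Lair1 (log2 -1.004). These sets are described by their counts beside the 8.81% and 3.03% of all genes that fell and rose.

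Cell type markers moved unevenly beside the matrix genes. The summed level of 14 fibroblast identity genes was 1125 and 1182 CPM with ICIs alone and 1187 and 1266 CPM with the antibody. Of these 2 fell, Mfap5 (log2 -1.64) and Pdgfra (log2 -0.90), none rose and the median was -0.05. Of 15 myofibroblast genes 8 fell, and the summed level was 1047 and 1413 CPM against 688 and 750 CPM. Of 14 macrophage genes 11 fell (2306 and 3059 CPM against 1162 and 1739 CPM), led by Cd68, Trem2 and Lyz2. Of 12 neutrophil genes 8 fell (870 and 1441 CPM against 104 and 157 CPM), led by S100a9 at log2 -3.64. None of 12 T cell genes and none of 13 cardiomyocyte genes passed. The cardiomyocyte sum was 64621 and 39095 CPM against 106501 and 88548 CPM, a difference that enters every level given in CPM. Among 12 endothelial genes 1 rose and among 12 smooth muscle and pericyte genes 2 fell and 1 rose. Of 11 epicardial and mesothelial genes 5 rose and 2 fell, while their summed level was lower with the antibody (387 and 525 CPM against 128 and 211 CPM). Of 11 valve and cartilage-like genes 1 rose and 1 fell, and no atrial, Schwann or adipocyte gene passed (8 of each tested). The part of these cell types in the matrix differences was not tested.

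On the tissue the matrix genes were arranged in patches. In the authors' deposited table Moran's I, which is near 0 for a gene scattered at random over spots and near 1 for one gathered in patches, had a median over the 42 genes of 0.398 and 0.417 without the antibody and of 0.252 and 0.151 with it. The medians over all genes in the authors' deposited table ranged from 0.00869 to 0.0180. For 35 of the 42 genes both antibody sections lay below both ICI-alone sections in the authors' deposited table, against 30.1% of the 19175 genes it lists in all 4 sections, and for 2 they lay above, against 10.6%. Tnc was among the most patchy, at 0.816 and 0.8003 against 0.696 and 0.458 in the authors' deposited table, and Col1a1 had 0.794 and 0.788 against 0.529 and 0.445. The antibody sections were also the shallower ones, and the part of depth in this difference was not tested.

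**Figure D2:**
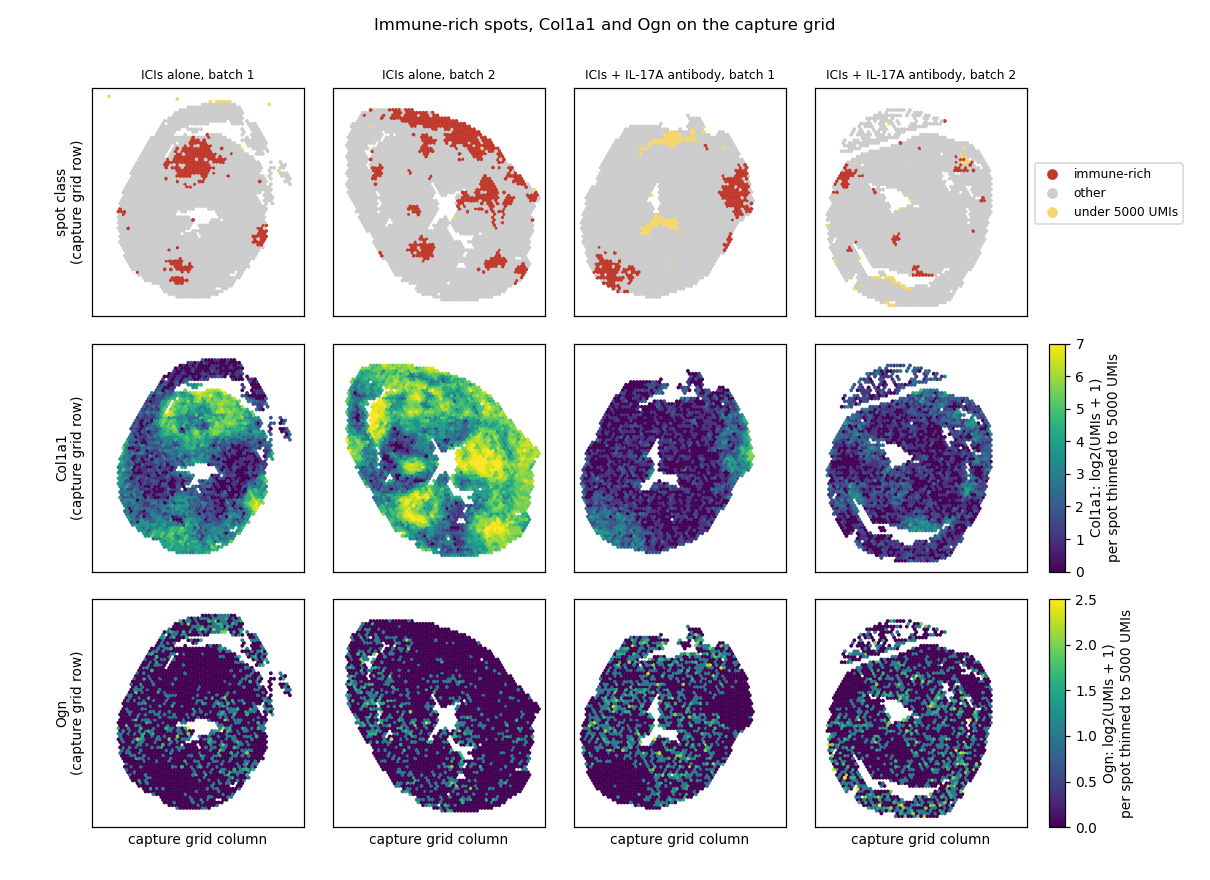
Capture grid positions of the spots in the 4 sections (columns), with immune-rich spots in red in the top row, and Col1a1 and Ogn below as log2(UMIs + 1) in each spot after thinning to 5000 UMIs. Immune-rich spots numbered 241 and 527 in the ICI-alone columns, and 215 and 82 in the antibody columns. Col1a1 is bright in and around the immune-rich patches, and Ogn is dark there.

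To place the genes around the infiltrate, spots were split by a panel of 20 T cell and myeloid genes that holds none of the 42. After thinning every spot to 5000 UMIs, those with at least 27 panel UMIs were called immune-rich, a threshold that takes at most 10% of spots with sections weighted equally. They made up 9.67% and 17.3% of the ICI-alone spots and 8.60% and 3.22% of the antibody spots, and were deeper, with median UMIs per spot from 16919.5 to 37971 against 12289.5 to 27165 in other spots. Cardiomyocyte genes were lower there, with all 13 called, and so were 10 of 14 fibroblast identity genes. With each section as its own control, 12 of the 42 matrix genes were lower and 13 higher in immune-rich spots than in other spots, against 24.6% and 22.4% of 18464 genes, 46.9% in all (edgeR adjusted p under 0.05). Scaled only by library size, 6 were lower and 16 higher, against 3057 and 7062 of all 18464 genes. Among the roles, 4 of 7 fibrillar collagens and 3 of 4 lysyl oxidases were higher and 4 of 6 proteoglycans lower.

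Fn1 was the gene most raised in immune-rich spots (log2 2.05, SE 0.24, edgeR adjusted p = 9.32e-05), where it measured 2164, 2948, 901 and 321 CPM against 437, 1028, 135 and 105 CPM in other spots. Immune-rich spots held 44.4%, 48.0%, 51.8% and 15.2% of all Fn1 UMIs and 12.2%, 21.6%, 9.57% and 4.44% of the UMIs of all genes. Thbs1 (log2 1.45), Tnc (log2 1.32), Col12a1 (log2 1.21), Col5a3 (log2 1.11) and Lox (log2 1.05) were also higher. Ogn was the gene most lowered (log2 -3.21, SE 0.24, edgeR adjusted p = 9.87e-06), at 8.20, 10.8, 6.60 and 9.98 CPM against 77.4, 57.8, 120 and 95.6 CPM. In every section Fn1 was higher and Ogn lower inside, with no overlap between the classes for Ogn. Eln (log2 -1.76), Thbs2 (log2 -1.44), Lum (log2 -1.39), Col6a2 (log2 -1.16) and Dcn (log2 -1.10) were also lower there.

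The spots next to the infiltrate carried most of the matrix genes at raised levels. In the ring 1 grid step outside immune-rich spots, 26 genes were higher and 5 lower than in spots at least 3 steps away, against 22.1% and 23.2% of 16669 genes, 45.3% in all (edgeR adjusted p under 0.05). All 7 fibrillar collagens were higher (median log2 1.44), as were 6 of 9 matricellular genes and 3 of 4 lysyl oxidases, while 3 of 6 proteoglycans were lower. The largest differences were those of Tnc (log2 3.26, SE 0.42), Col12a1 (log2 2.70, SE 0.36), Cthrc1 (log2 2.097, SE 0.28), Fn1 (log2 2.09, SE 0.31) and Ogn (log2 -2.09, SE 0.22). The others lower in the ring were Comp (log2 -1.09, and 0.32 with immune-rich spots set at 20% of spots), Eln (log2 -1.04), Lum (log2 -0.65) and Dcn (log2 -0.56). The ring counts were 20 to 34 when single sections were left out, the lowest without antibody section 2. In the fits at those ends 5617 and 7412 of all genes were called.

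By distance, in CPM scaled by library size alone, 22 and 23 of the 42 genes peaked 1 step outside the immune-rich spots in the ICI-alone sections and 16 in each antibody section. Inside them 4 and 3 genes peaked where no antibody was added, and 17 and 11 where it was. How many of all genes peak in each place was not counted, so these counts have no background beside them. Some peaks rest on few UMIs, such as 3 for Col8a2 inside in antibody section 2. Others are near ties, such as Col1a1 in antibody section 1, given below. Col1a1 in ICI-alone section 1 measured 4055 CPM inside, 5949 CPM at 1 step and 863 CPM at 5 or more steps, and in ICI-alone section 2 9330, 12527 and 3217 CPM. In antibody section 1 the same places held 1398, 1395 and 163 CPM of Col1a1, and in antibody section 2 884, 970 and 285 CPM. In all 4 sections the lowest of these levels was the farthest from the infiltrate. Ogn ran the other way in all 4, from 7.75, 11.2, 8.56 and 12.3 CPM inside to 81.6, 74.5, 118 and 112 CPM at 5 or more steps. Cilp was at 2.13 and 2.02 CPM inside immune-rich spots with ICIs alone and 45.2 and 50.1 CPM with the antibody, and at 5 or more steps at 10.8, 6.400, 4.91 and 6.21 CPM.

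**Figure D3:**
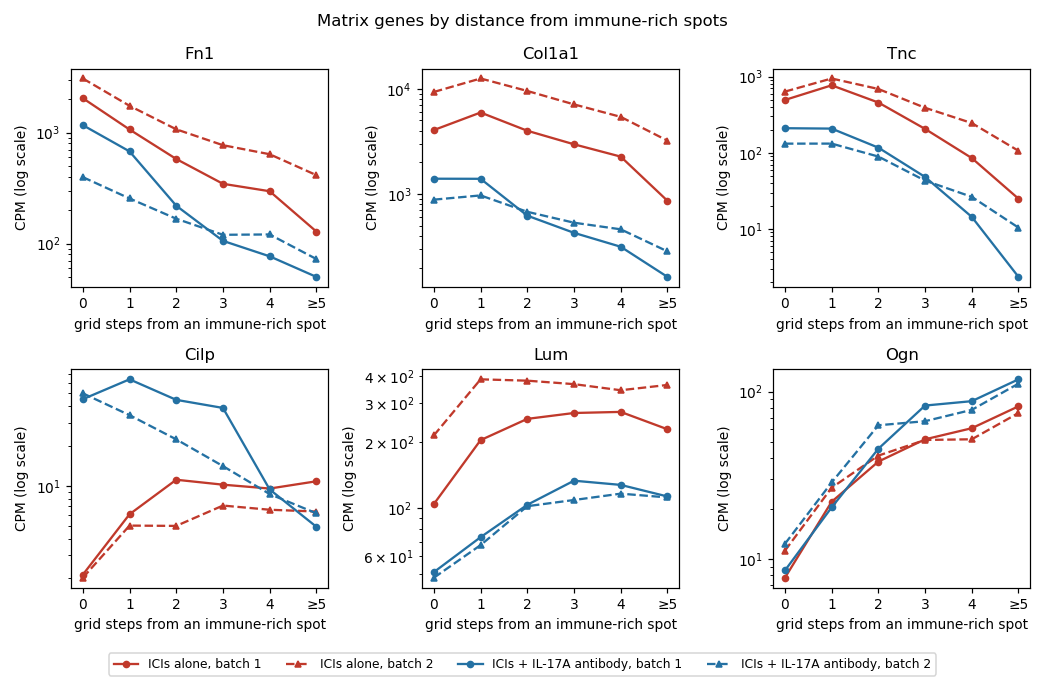
Levels of 6 matrix genes in CPM (log axis, scaled by library size) inside immune-rich spots (0) and by grid steps from the nearest one, in each section. Red is ICIs alone, blue is ICIs with the IL-17A antibody, circles with solid lines are batch 1 and triangles with dashed lines batch 2. Fn1 falls and Ogn climbs with distance in all 4 sections, apart from Fn1 at 3 and 4 steps in antibody section 2 (120 and 121 CPM), and Cilp inside the immune-rich spots is near 2 CPM in red and 45.2 and 50.1 CPM in blue.

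Within immune-rich spots the matrix genes that passed the test included both falls and rises. Of 39 genes that could be tested there, 13 were lower and 3 higher, against 3.28% and 3.19% of 13251 genes, 6.47% in all, and the median log2 difference was -0.64 (all genes 0.00). Col8a2, Col11a1 and Fmod had too few UMIs for the test. Cilp was 20.3-fold higher (log2 4.33, SE 0.21, edgeR adjusted p = 0.00159), from 19 and 29 UMIs with ICIs alone and 206 and 73 UMIs with the antibody. Col6a5 was 10.8-fold higher (log2 3.41, SE 0.40, edgeR adjusted p = 0.0174), from 9 and 30 UMIs and 105 and 21 UMIs. Eln was higher (log2 1.24, SE 0.26, edgeR adjusted p = 0.0417). Of the immune-rich spots 5.81% and 13.7% lay at the tissue edge in the ICI-alone sections, and 12.6% and 30.5% in the antibody sections. Summed epicardial and mesothelial levels in these spots were 246 and 269 CPM against 365 and 326 CPM. Col6a5 and Eln were also higher at the edge, as given below, and the part of the edge in their rise was not tested. The lower genes were Col1a1, Col3a1, Col5a1, Col8a1, Col15a1, Col12a1, Tnc, Cthrc1, Sparc, Lum, Vcan, Lox and Loxl2. Cthrc1 (log2 -3.18) and Col1a1 (log2 -2.71) had the largest falls. Fn1 stayed outside the threshold (log2 -1.87, adjusted p = 0.0607). With the batch as a block 6 of these calls were kept, those of Cilp, Col6a5, Eln, Col12a1, Tnc and Cthrc1, and the 10 others had adjusted p from 0.0525 (Lum) to 0.0802 (Col3a1). The block called 105 of all 13251 genes there. Without antibody section 2, which held 82 of the immune-rich spots, Cilp alone kept its call. That fit has a lone antibody section and called few genes of any kind. Without ICI-alone section 1 the log2 difference was 4.37 for Cilp and -3.60 for Cthrc1. With immune-rich spots set at 5% of spots the count was 5, against 292 of all 11762 genes.

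In the other spots 29 genes were lower and none higher, against 7.39% and 2.47% of 18127 genes, 9.86% in all, with a median log2 difference of -1.55. Ogn there had a log2 difference of 0.71 (adjusted p = 0.051). Filtering at 10 CPM left none of these genes called at 0.05, and none of all 9412 genes tested. Under that filter 33 of the 37 matrix genes tested had an unadjusted p under 0.05 (edgeR). Leaving out either antibody section also lost these calls, in fits with a lone antibody section that called few or no genes of any kind. On the full set the batch as a block gave 35 lower and 5 higher, against 3073 and 2375 of all 18127 genes. DESeq2 gave 33 lower and 2 higher, against 2014 and 684 of all genes.

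The treatment difference itself differed between the spot classes for 11 of the 42 genes, against 2.90% of 18464 genes (edgeR interaction term). For 10 the difference was shifted upward in immune-rich spots, against 1.77% of all genes, and for 1 downward, against 1.14%. Levels here were scaled over both classes together, with immune-rich spots first and other spots second, and sections in the same order as before. Cilp measured 2.26, 1.94, 34.9 and 40.5 CPM inside and 12.3, 6.66, 16.1 and 10.7 CPM outside (interaction log2 3.54, SE 0.34, edgeR adjusted p = 0.000125). With ICIs alone Cilp was lower inside than outside in both sections, and with the antibody higher in both. Eln was lower inside in all 4 sections, by less with the antibody, at 12.8, 17.4, 26.6 and 40.5 CPM inside and 98.6, 105, 44.5 and 60.2 CPM outside (interaction log2 2.08, SE 0.22, edgeR adjusted p = 0.000199). Col6a5 measured 1.07, 2.01, 17.8 and 11.6 CPM inside and 2.45, 6.25, 8.90 and 8.84 CPM outside (interaction log2 2.30). Like Cilp, it lay below the outer level with ICIs alone and above it with the antibody.

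Thbs4 also changed sides, at 10.8, 9.49, 12.4 and 15.5 CPM inside and 15.9, 25.8, 5.29 and 3.87 CPM outside (interaction log2 2.55, SE 0.35, edgeR adjusted p = 0.00161). Its fall was found in the other spots (log2 -2.16, adjusted p = 0.0149). Inside, its difference of log2 0.61 did not pass (adjusted p = 0.129) and was -0.20 with immune-rich spots set at 20% of spots. Thbs2 was the gene shifted downward, at 12.7, 52.9, 4.74 and 3.88 CPM inside and 27.3, 63.2, 44.5 and 22.2 CPM outside (interaction log2 -2.46, SE 0.35, edgeR adjusted p = 0.00196). It was lower inside in every section, by more with the antibody.

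The remaining 6 genes fell in the other spots, and in immune-rich spots they fell by less or did not pass. Cthrc1 measured 76.2, 138, 11.2 and 8.87 CPM inside and 48.6, 143, 2.36 and 2.34 CPM outside (interaction log2 1.85). Lox measured 160, 276, 73.3 and 49.9 CPM inside and 111, 287, 12.3 and 19.3 CPM outside (interaction log2 1.80). For both, the inner and outer levels were near each other in ICI-alone section 2 and well apart in the antibody sections. Col12a1 measured 73.6, 93.1, 16.4 and 9.43 CPM inside and 34.4, 80.5, 2.69 and 3.25 CPM outside (interaction log2 1.61). Tnc measured 523, 609, 162 and 106 CPM inside and 255, 515, 33.1 and 31.0 CPM outside (interaction log2 1.41). Loxl3, the lysyl oxidase-like 3 gene, measured 86.6, 116, 91.9 and 84.8 CPM inside and 56.0, 113, 27.4 and 38.5 CPM outside (interaction log2 1.14). These 3 were higher inside in all 4 sections. Col14a1 measured 21.8, 60.6, 20.3 and 19.96 CPM inside and 51.2, 110, 19.0 and 22.6 CPM outside (interaction log2 1.02). It fell outside (log2 -1.94), while the inner difference did not pass (log2 -0.88, adjusted p = 0.279). Without antibody section 1 the interaction of Cilp alone passed (adjusted p = 0.0494), without ICI-alone section 2 those of Cilp and Eln. Both of these fits hold a lone section in a group and called few genes of any kind. Without antibody section 2 the interaction log2 of the 11 genes ran from -2.64 (Thbs2) to 3.19 (Cilp). Filtering at 10 CPM left 2, against 50 of all 10204 genes. With immune-rich spots set at 5% of spots 21 passed, against 1314 of all 17829 genes. At 20% 5 passed, against 39 of all 18379. Summed levels of the 12 T cell genes, 8 of them in the panel, inside immune-rich spots were 192 and 173 CPM with ICIs alone and 441 and 481 CPM with the antibody, and those of the 12 neutrophil genes, none in the panel, were 1160 and 1580 CPM against 526 and 473 CPM. The part of this difference in makeup in the matrix interactions was not tested.

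**Figure D4:**
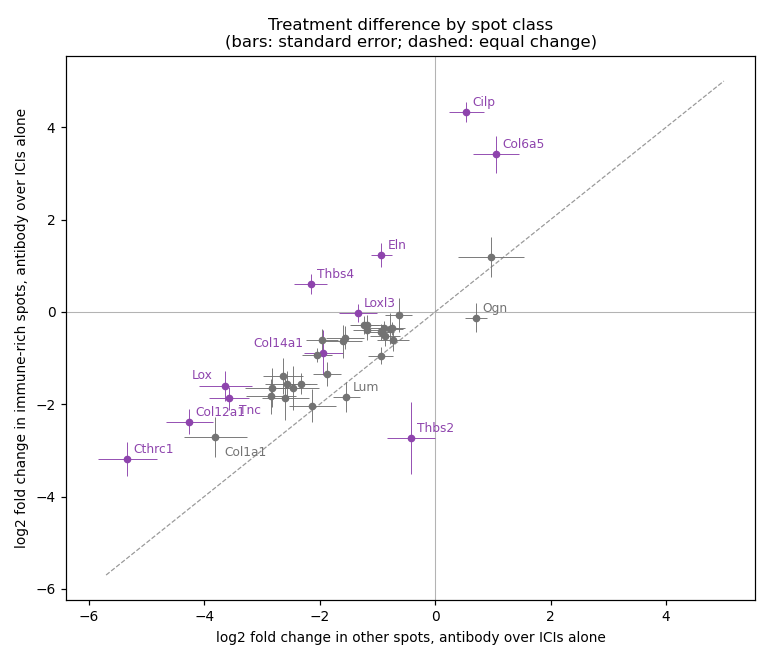
Treatment difference (antibody over ICIs alone, log2) in other spots on the horizontal axis and in immune-rich spots on the vertical axis, for the 39 matrix genes tested in both, with standard errors. The 11 genes of the interaction are in purple. Cilp at 4.33 and Col6a5 at 3.41 stand far above the line of equal change, and Thbs2 at -2.73 stands below it.

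At the tissue edge, taken as spots with fewer than 6 neighbours under tissue and so both the outer surface and cavity walls, 3 of the 42 genes were higher than in the interior (at least 3 steps from such a spot), against 0.336% of 14571 genes higher, 0.0275% lower and 0.364% called in all. Col6a5 measured 4.35, 21.7, 44.1 and 17.4 CPM at the edge and 1.40, 1.79, 4.09 and 3.20 CPM in the interior (log2 2.88, SE 0.31, edgeR adjusted p = 0.0228). Eln measured 136, 194, 63.7 and 119 CPM at the edge and 48.1, 47.5, 36.8 and 31.0 CPM in the interior (log2 1.58, SE 0.19, edgeR adjusted p = 0.0284). Fmod measured 1.26, 3.32, 7.39 and 3.74 CPM at the edge and 0.45, 0.84, 0.74 and 0.57 CPM in the interior (log2 2.39, SE 0.33, edgeR adjusted p = 0.041). All 3 were higher at the edge in 4 of 4 sections. Without ICI-alone section 2 none of the 3 passed (adjusted p of 0.0538, 0.0648 and 0.113 for Col6a5, Eln and Fmod), and without antibody section 2 Col6a5 alone did. The count of called genes was 8 without antibody section 1, against 455 of all 15793 genes. With DESeq2 it was 10, against 479 of all 14571 genes. Edge spots were 16.9%, 13.9%, 8.79% and 23.6% of spots. In the edge of antibody section 2 the summed level of atrial genes was 30989 CPM against 949 CPM in its interior. Without edge spots the whole-section count of called matrix genes was 30, against 2519 of all 18636 genes. The edge difference did not differ between the treatments for any of the 42 genes at an adjusted p under 0.05 (edgeR, against 0% of all genes). At an unadjusted p under 0.05 (edgeR) there were 20 of the 42, and 2850 of all 14571 genes. DESeq2 called 5 of the 42, and 193 of all genes.

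**Figure D5:**
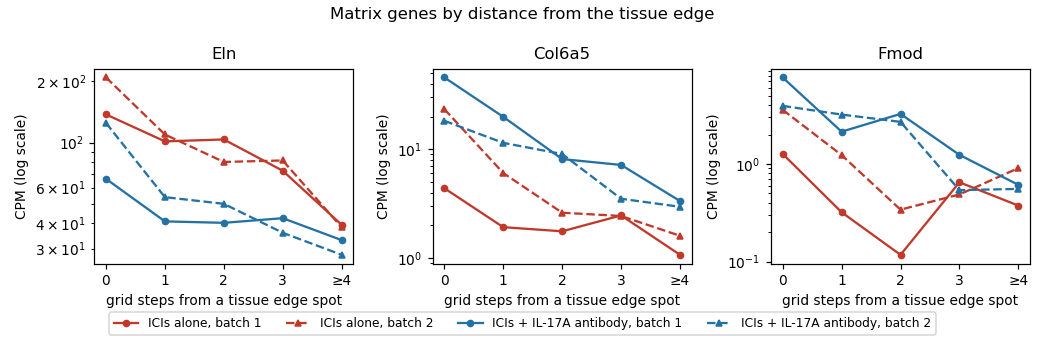
Levels of Eln, Col6a5 and Fmod in CPM (log axis, scaled by library size) at the tissue edge (0) and by grid steps from it, in each section. Colours, marks and lines are red for ICIs alone, blue for ICIs with the IL-17A antibody, circles with solid lines for batch 1 and triangles with dashed lines for batch 2. In all 4 sections each gene is highest at the edge.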

How the data were processed

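The authors deposited UMI counts by gene for the spots that lie on tissue. The matrix header names Space Ranger 2.1.0, and the submitters' processing notes name mm10 and Seurat 5.1.0. Which probe set was used is not stated in these sources. Other deposited values are barcodes, symbols and grid positions, and a score per gene (Moran's I) with an adjusted p-value whose method is not stated. Barcodes mark grid positions, so libraries share them.

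The 42 genes and all lists were chosen with earlier results of these data known. Counts were summed per section, or per section and spot class, filtered (filterByExpr), scaled (TMM) and tested with edgeR 4.0.16 (limma 3.58.1, R 4.3.3) at an adjusted p of 0.05. The section was a block where both classes entered, and panel genes were left out of tests by class. Spot scoring used Python 3.11.15 and numpy 2.4.6. Gene coordinates and promoters are RefSeq's for GRCm38.p6, which is mm10, matched by symbol. All 42 are named, and values per section are given for the largest and smallest difference of each role, positive differences and interaction genes. Up to 3 genes of the smallest p are taken per companion list. On simulated whole-section data 64 of 100 changes of 2-fold and 100 of 100 of 4-fold were recovered, with 8 false calls among 18585 genes. The simulation gave every gene the same spread between sections, changed only well-counted genes, and made rises and falls equal in number. These rates were not measured for genes that vary more between sections of a group, as Col1a1 did.

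Batch numbers in the labels pair sections. Deviations of same-batch sections correlated at 0.159 over 13464 genes, and the blocked fit is an alternative. Others were scaling by library size or DESeq2 size factors, DESeq2 1.42.0, a filter at 10 CPM in 2 sums or none, equal section totals, left-out sections, atrial-rich or edge spots, thresholds at 5% and 20% of spots, thinning to 2000 UMIs, and an interior from 2 steps. Leaving edge spots out of spot classes and rings was chosen after seeing the data. Image scale factors were not used.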

Additional observations from a re-analysis of the deposited data

Results flagged for a closer look

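For 11 of the 42 matrix genes the antibody difference in immune-rich spots differed from that in other spots (edgeR interaction term, adjusted p under 0.05). The log2 shift was 3.54 for Cilp, 2.55 for Thbs4, 2.30 for Col6a5, 2.08 for Eln, 1.85 for Cthrc1, 1.80 for Lox, 1.61 for Col12a1, 1.41 for Tnc, 1.14 for Loxl3, 1.02 for Col14a1 and -2.46 for Thbs2. Cilp passed in every alternative run, and all 11 kept their sign.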

How the results depend on the processing

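Counts of called genes among the 42 moved by over 1.5 times in these cases. The filter at 10 CPM in 2 sums gave 19 in whole sections, 10 in immune-rich spots and 0 in other spots. Of all genes it called 821 of 9504, 440 of 9472 and 0 of 9412 there. It gave 2 for the interaction and 1 at the tissue edge, against 50 of 10204 and 25 of 9966 genes. The threshold at 5% of spots gave 5 in immune-rich spots and 21 for the interaction, against 292 of 11762 and 1314 of 17829 genes. That at 20% gave 5 for the interaction, against 39 of 18379 genes. DESeq2 gave 10 at the edge and 5 for the edge by treatment, against 479 and 193 of all 14571 genes. The batch as replicate block gave 6 in immune-rich spots, against 105 of all 13251 genes. With single sections left out, the lone section being assumed to vary like the others, counts ranged from 12 to 39 in whole sections, 1 to 29 in immune-rich spots, 0 to 37 in other spots, 12 to 21 between classes, 1 to 22 for the interaction, 20 to 34 for the ring, 1 to 8 at the edge and 0 to 15 for the edge by treatment. Counts over all genes moved in these fits too. The cause of these moves was not tested.

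Signs were followed for all 42 genes in whole sections, and elsewhere for the called genes. Thbs2, Thbs4 and Ogn in immune-rich spots and Col3a1 and Cilp between classes were followed as well. Among the values followed, log2 signs turned for 17, with the called Postn, Vcan and Comp among them. None passed the test after turning. With single sections left out Col8a2 ranged from -0.37 to 0.79 and Thbs2 from -1.04 to 0.28 in whole sections, Ogn from -0.39 to 0.18 in immune-rich spots, and Cilp from -0.82 to 0.57 between classes. In immune-rich spots signs also turned for Ogn (0.047 by library size, 0.25 at 20%) and Thbs4 (-0.20 at 20%). Between classes they turned for Col3a1 (0.029 by library size, 0.32 at 20%), Cilp (0.29 by library size, 0.12 at 10 CPM, 0.32 at 20%), Postn (0.12 at 20%) and Vcan (0.0100 at 20%), and in the ring for Comp (0.32 at 20%). Scaling by library size moved the median of all genes from 0.00 to 0.17 in immune-rich spots, 0.19 to 0.53 between classes, 0.08 to 0.35 for the interaction, 0.10 to 0.38 in the ring and -0.03 to 0.10 at the edge. Beside the calls given in the report, the block gave 38 in whole sections (33 lower, 5 higher) and 40 in other spots (35 lower, 5 higher). Of all genes the block called 3839 of 18817 in whole sections (1520 higher) and 5448 of 18127 in other spots (2375 higher). The lowest levels rest on few UMIs per section, which limits Col8a2, Col11a1, Fmod and Comp.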
